A study of Mus musculus with 14 samples.

Results

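The clustered protocadherins are 58 of the 35449 mouse genes in these data, and they were chosen by their GENCODE M21 symbols (Pcdha, Pcdhac, Pcdhb, Pcdhga, Pcdhgb or Pcdhgc followed by a number). They comprise 14 alpha, 22 beta and 22 gamma genes, with 57 symbols because Pcdha11 stands on 2 gene identifiers. All lie on the plus strand of chromosome 18 of GRCm38: the alpha genes at chr18:36930184-37187661, the beta genes at chr18:37264938-37524479 and the gamma genes at chr18:37661793-37841873. RNA was measured in 14 primary lines from mouse embryos at E13.5, all untreated. WT and KO refer to H3f3a, which encodes the replication-independent histone H3.3 and carries a knockout-first allele in the KO lines. Mouse embryonic fibroblast lines (MEFs) came from the body after removal of the head and internal organs, and neurosphere lines, which hold neural stem and precursor cells, came from the head. The WT groups had 3 lines each, the KO MEFs 5 and the KO neurospheres 3, with the lines of a group separately derived. In each genotype 3 pairs of a MEF and a neurosphere line share a number in their deposited names, the file number. Whether a shared number marks the same embryo is not stated, so the main cell type tests did not pair these lines. The design asks how loss of H3f3a and the type of culture relate to transcript levels.

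Clustered protocadherins are cell surface adhesion proteins that bind copies of themselves on neighbouring cells, and they are known for giving neurons a molecular identity used in dendrite self-avoidance, synapse formation and neuron survival. In the alpha and gamma clusters each gene contributes a variable first exon with its own promoter, which is spliced to constant exons shared by the whole cluster and coding for a common cytoplasmic end. A beta gene is mostly a single exon and has its own end. In neurons CTCF and cohesin bring a promoter and a distant enhancer together, so that a cell uses a few of the variable exons, while DNA methylation and SMCHD1 keep others silent. The C-type genes (Pcdhac1, Pcdhac2, Pcdhgc3, Pcdhgc4 and Pcdhgc5) are the exceptions and are more widely used.

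The library totals ran from 1669406 counts (KO neurosphere line 2) to 3296178 counts (WT MEF line 3), and the clustered protocadherins held 0.0374% to 0.0600% of the counts in MEFs and 0.187% to 0.282% in neurospheres. The H3f3a level was 847, 1427 and 855 CPM (counts scaled to a common library depth) in WT MEF lines 1 to 3 and 7.29 to 18.8 CPM in KO MEFs. It was 1970 to 2417 CPM in WT and 26.3 to 70.9 CPM in KO neurospheres, so the labels held for this gene in 14 of 14 libraries. Of 10 fibroblast markers all had counts in MEFs, at a summed 14574 to 22755 CPM against 36.7 to 159 CPM in neurospheres (Col6a1, Col3a1 and Postn at 0 in KO neurospheres). Of 12 neuron markers 9 had counts in WT MEFs (135 to 190 CPM summed, Elavl3, Snap25 and Dcx at 0), 8 in KO MEFs (127 to 166 CPM), 12 in WT neurospheres (1439 to 1590 CPM) and 11 in KO neurospheres (1374 to 1778 CPM). Of 11 neural stem and radial glia markers, 11 had counts in both neurosphere groups, at 6948 to 12381 CPM summed, while MEFs had 3972 to 5082 CPM with Olig2 at 0. WT MEF line 2 and KO MEF line 3 stood apart from the other MEF lines in protocadherins of several kinds, and not in these genes alone. Over all genes kept, the deviations of these lines from their group means correlated at 0.712, the highest value between lines of different groups. Pcdh17, a protocadherin outside the clusters, stood at 102 and 141 CPM in these lines against 1.73 to 4.76 CPM in the other 6, and Pcdh19, another, at 111 and 147 CPM against 388 to 595 CPM. Of 6 astrocyte markers 4 had counts in each MEF group, with Gfap and Aqp4 at 0, and these lines also stood apart in their sum, at 254 and 382 CPM against 68.7 to 151 CPM in the other 6 and 432 to 1726 CPM in neurospheres. Their summed oligodendrocyte lineage markers were 155 and 232 CPM against 95.2 to 164 CPM, with Mag at 0 in all MEFs, and their neuron markers, 190 and 127 CPM, were the highest and the lowest of the MEF lines. The part of these markers in the results was not tested; calls on the clustered genes that change without either line are given with and without it.

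The shared ends limit which gene a read can be given to. The libraries read the 3′ end of polyadenylated RNA, and the shared last exon of the alpha cluster (chr18:37184946-37187661) and of the gamma cluster (chr18:37839903-37841873) is common to most members. Of 21 alpha transcripts that end there, 20 were identical to the most used alpha transcript (Pcdha4, itself among them) over at least the last 1928 bases, and 24 of 28 gamma transcripts to the most used gamma transcript over at least 2116 bases. Within the last 500 bases, 20 of 21 alpha and 25 of 28 gamma shared-end transcripts had no 31-base word of their own. For the 26 beta transcripts the median share of private words was 100%. Pcdhb21 is an exception among the genes with many reads. Its end (chr18:37513621-37518325) runs into the start of Pcdhb22 (chr18:37517871-37524479), and 9.57% of the words in its last 500 bases were private. Reads in this overlap can be given to either gene, so the values of Pcdhb21 above all are uncertain. The Pcdhb22 transcript that held its reads had 100% private words in the last 500 bases. Another Pcdhb22 transcript, with 0% private words, held no reads. For the alpha and gamma clusters, then, the summed reads are the measurement, and the gene named for a read is the estimate of the Salmon program.

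**Figure D1:**
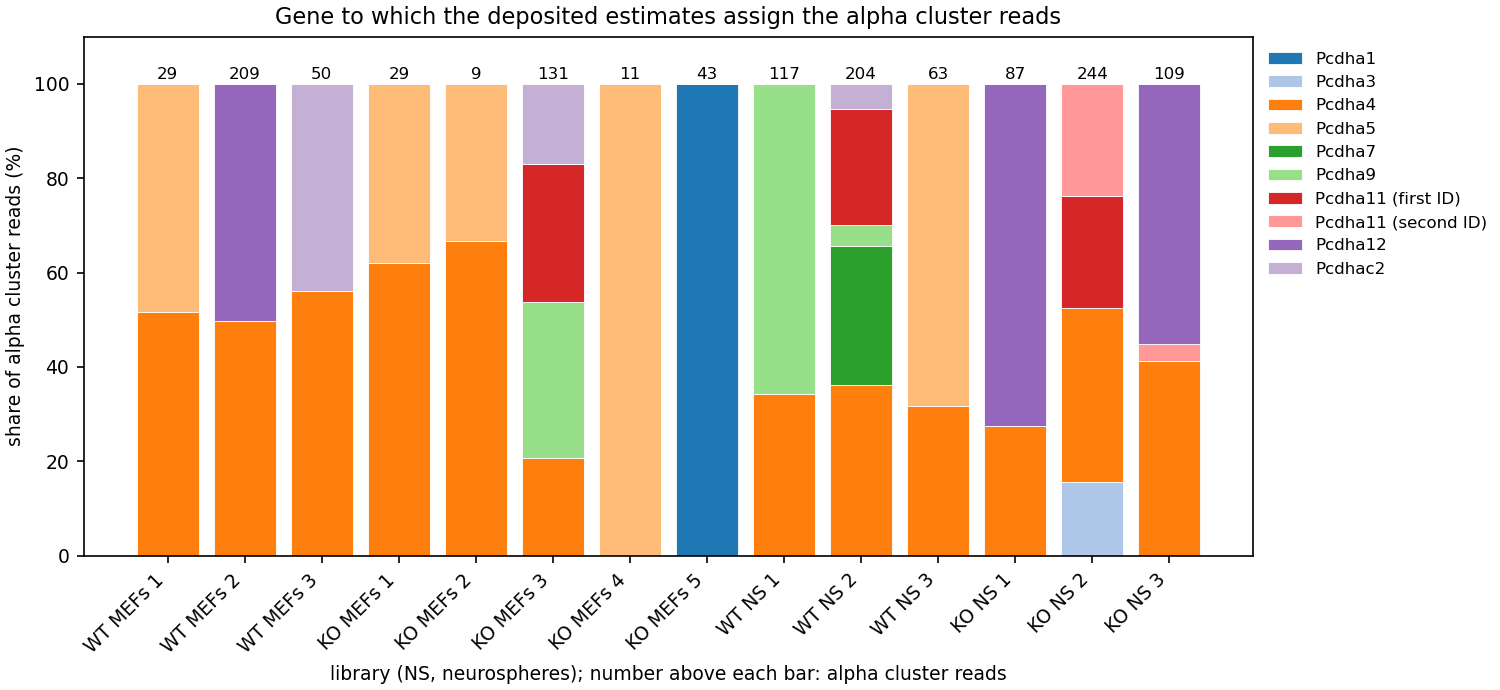
Stacked bars give, for each of the 14 libraries, the share (%) of alpha cluster reads that the deposited estimates place on each alpha gene, with the number of reads above the bar. Pcdha4 held a share in 12 of the libraries, while the other gene or genes changed from line to line of a group, with Pcdha5 alone in KO MEF line 4 and Pcdha1 alone in KO MEF line 5.

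That estimate placed the alpha reads on 1 to 5 genes in each library. The split differed between lines of a group: next to Pcdha4, the alpha reads of WT MEF lines 1 to 3 went to Pcdha5, Pcdha12 and Pcdhac2, and those of WT neurosphere lines 1 and 3 to Pcdha9 and Pcdha5. With 20 of 21 shared-end transcripts alike at the end, these names are not read here as choices of promoter. In the gamma cluster a single transcript of Pcdhgc4, at 2272 bases the shortest of those 24, held 87.9% to 98.0% of the cluster's reads in every library. Its level was thus nearly that of the cluster, and a high Pcdhgc4 level does not show that the Pcdhgc4 promoter was the one in use.

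The gamma cluster had the most reads of the 3 in every library and was higher in neurospheres than in MEFs. Its reads numbered 1119, 1226 and 1612 in WT MEF lines 1 to 3, and 1522, 1024, 912, 1339 and 1196 in KO MEF lines 1 to 5. They numbered 5499, 3292 and 4675 in WT and 5574, 2461 and 4148 in KO neurosphere lines 1 to 3. Scaled to depth, the levels were 459 ± 28.4 CPM (SD, n = 3) in WT MEFs, 447 ± 62.7 CPM (n = 5) in KO MEFs, 1769 ± 299 CPM (n = 3) in WT neurospheres and 1745 ± 483 CPM (n = 3) in KO neurospheres. The lowest neurosphere line, at 1452 CPM, was above the highest MEF line, at 525 CPM. In edgeR's quasi-likelihood test the WT difference was 1.96 on the log2 scale (SE 0.22, 3.88-fold, 95% interval 2.74 to 5.49, Benjamini-Hochberg adjusted p = 0.000538), and the KO difference 1.99 (SE 0.20, 3.97-fold, 2.90 to 5.42, adjusted p = 4.41e-05). The genotype by cell type interaction, the difference between these values, was 0.02 (95% interval -0.59 to 0.63). In bulk RNA, more cells using the cluster and more RNA per cell cannot be told apart.

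**Figure D2:**
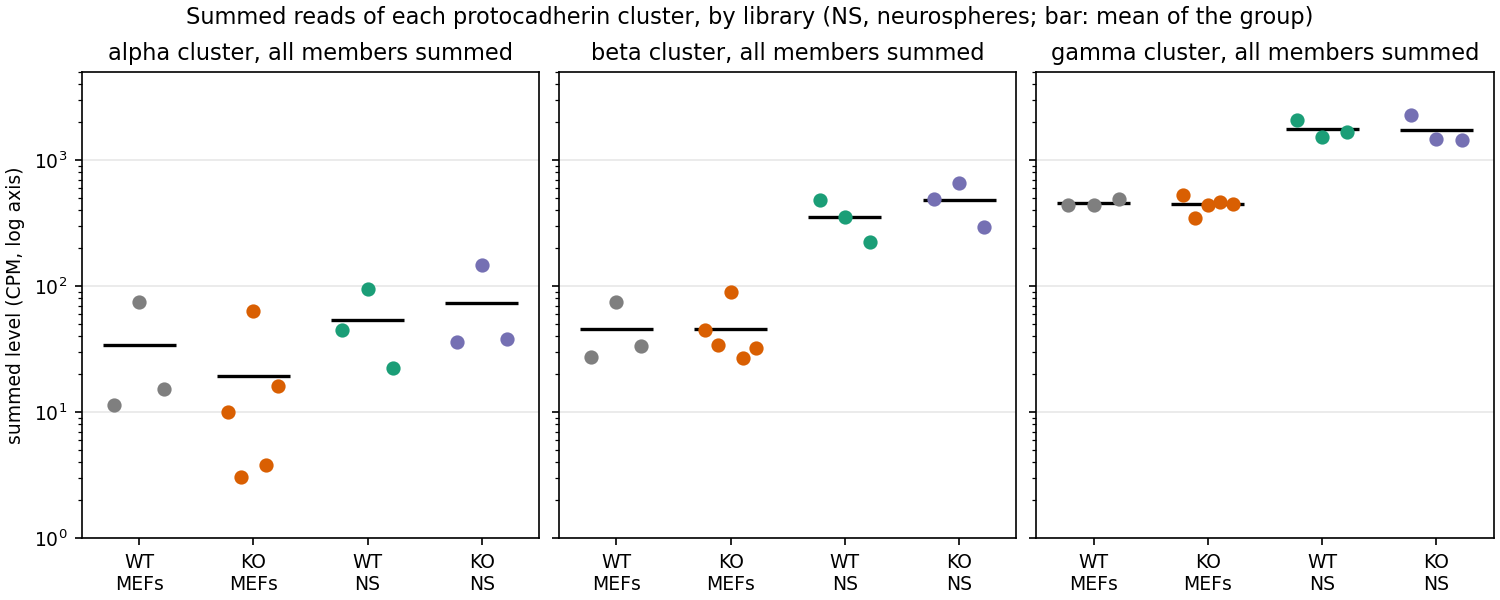
Points are libraries and black bars group means of the summed level (CPM, log axis) of all alpha, beta and gamma members in the 4 groups. Neurosphere lines lie above MEF lines for the beta and gamma sums with no overlap, whereas alpha sums overlap and are highest among MEFs in WT line 2 (75.2 CPM) and KO line 3 (63.6 CPM).

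Nearly all gamma reads were of the shared end, with 0.243% to 2.30% per library at other ends. The shared-end difference therefore follows that of the sum and does not locate it. Shared-end reads rose 3.91-fold in WT neurospheres over WT MEFs (log2 1.97, SE 0.22, edgeR adjusted p = 0.000515) and 4.00-fold in KO lines (log2 2.00, SE 0.20, adjusted p = 4.21e-05). Gamma transcripts that end elsewhere, 11 forms that are mostly annotated as retained introns, held 6 to 45 reads per library. Their level was 5.11 ± 2.76 CPM (SD, n = 3) in WT MEFs, 6.92 ± 3.56 CPM (n = 5) in KO MEFs, 6.67 ± 2.63 CPM (n = 3) in WT neurospheres and 12.3 ± 3.14 CPM (n = 3) in KO neurospheres. Their differences between cell types were 0.39 in WT lines (edgeR adjusted p = 0.603) and 0.85 in KO lines (adjusted p = 0.124). The shared class was also limited to forms that end within 200 bases of the common end. Forms that stop earlier in the last exon, chiefly a retained-intron form of Pcdhgc5, then moved to the other ends. With this limit the KO difference of the other ends passed the threshold (1.13, edgeR adjusted p = 0.0216). In WT lines 1 to 3 the other ends then held 25, 6 and 27 reads in MEFs and 74, 23 and 36 in neurospheres.

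Gene by gene, 13 of the 58 members were called higher in WT neurospheres than in WT MEFs, 10 beta and 3 gamma, with none lower. Over all 11080 genes tested in this comparison 20.8% were called higher and 20.8% lower. In the KO lines 16 members were called higher, 14 beta and 2 gamma, again with none lower, against 25.4% higher and 26.2% lower of 11413 genes. The low-count filter had kept 17 members in the WT and 22 in the KO comparison, and a gene could pass it through its neurosphere lines alone. Of the members called, Pcdhb5, Pcdhb7 to Pcdhb11, Pcdhb16, Pcdhb18, Pcdhb21 and Pcdhgc5 were not kept when MEF lines were fitted alone. They passed only with their neurosphere lines, so their p-values add nothing to their counts. The lines of the 13 and 16 genes called did not overlap, and neurosphere lines lay wholly above MEF lines for 28.2% and 24.2% of all genes tested.

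Among gamma genes Pcdhgc4, a C-type gene with a known role in the survival of interneurons, carried the reads of the cluster as described above. It stood at 416, 397 and 450 CPM in WT MEFs and at 1947, 1472 and 1572 CPM in WT neurospheres, a difference of 2.00 (log2, SE 0.21, edgeR adjusted p = 0.000457). Pcdhgc5, another C-type gene, was found at 4.37, 0.719 and 0.610 CPM in WT MEFs and at 19.5, 7.01 and 5.33 CPM in WT neurospheres. The groups did not overlap, and the difference of 2.54 was called narrowly (SE 0.85, edgeR adjusted p = 0.0460); it held without WT MEF line 1 and was lost on leaving out any of the other 5 lines, with adjusted p of 0.0523 to 0.197. It was also lost in limma (adjusted p = 0.0675). In the KO lines the Pcdhgc5 difference was 1.66 (edgeR adjusted p = 0.00894), and 2.08 with the replicate number as a block, where the call was lost (adjusted p = 0.0555). The deposited estimates placed the Pcdhgc5 reads on its retained-intron form in every library except WT MEF line 2. In that line they were placed on a coding form that reaches the common end. The Pcdhgc5 calls are thus of the retained-intron form and do not show a gain of coding Pcdhgc5 RNA. Pcdhga3, an A-type gamma gene, was called in WT lines (log2 2.06, SE 0.57, edgeR adjusted p = 0.0242) but stood at -0.85 in KO lines (adjusted p = 0.407). The WT call was lost without WT MEF line 1, WT MEF line 3 or WT neurosphere line 3 (adjusted p 0.0737 to 0.0854). Of the other gamma genes with the highest mean levels, Pcdhgb5 differed by 2.40 in WT lines (adjusted p = 0.139), Pcdhga11 by -0.02 in WT and 0.19 in KO lines, and Pcdhga5 by -0.88 in KO lines, none past the threshold.

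The beta cluster showed the largest relative difference between the cell types, and since its genes have ends of their own, it could be followed gene by gene. Beta reads numbered 69, 210 and 109 in WT MEF lines, 131, 99, 184, 77 and 85 in KO MEFs, 1275, 763 and 628 in WT neurospheres and 1192, 1093 and 849 in KO neurospheres. The summed level was 45.4 ± 26.3 CPM (SD, n = 3) in the WT and 45.5 ± 25.5 CPM (n = 5) in the KO MEF lines, and 356 ± 133 and 482 ± 180 CPM (n = 3 each) in WT and KO neurospheres. The highest MEF line (KO line 3, 89.4 CPM) stayed below the lowest neurosphere line (WT line 3, 223 CPM). The difference was 2.98 in WT lines (log2, SE 0.48, 7.88-fold, 95% interval 3.63 to 17.1, edgeR adjusted p = 0.00271) and 3.44 in KO lines (SE 0.41, 10.8-fold, 5.72 to 20.5, adjusted p = 0.000139). The interaction was 0.44 (95% interval -0.98 to 1.86). An exact two-sided permutation test of the log2 CPM of the beta sum gave p = 0.1 for 3 WT against 3 WT lines, the smallest that design allows, and p = 0.0179 for 3 KO against 5 KO lines, also the smallest possible; over the 12 sums tested these became 0.24 and 0.107. The gamma sum had identical permutation values.

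**Figure D3:**
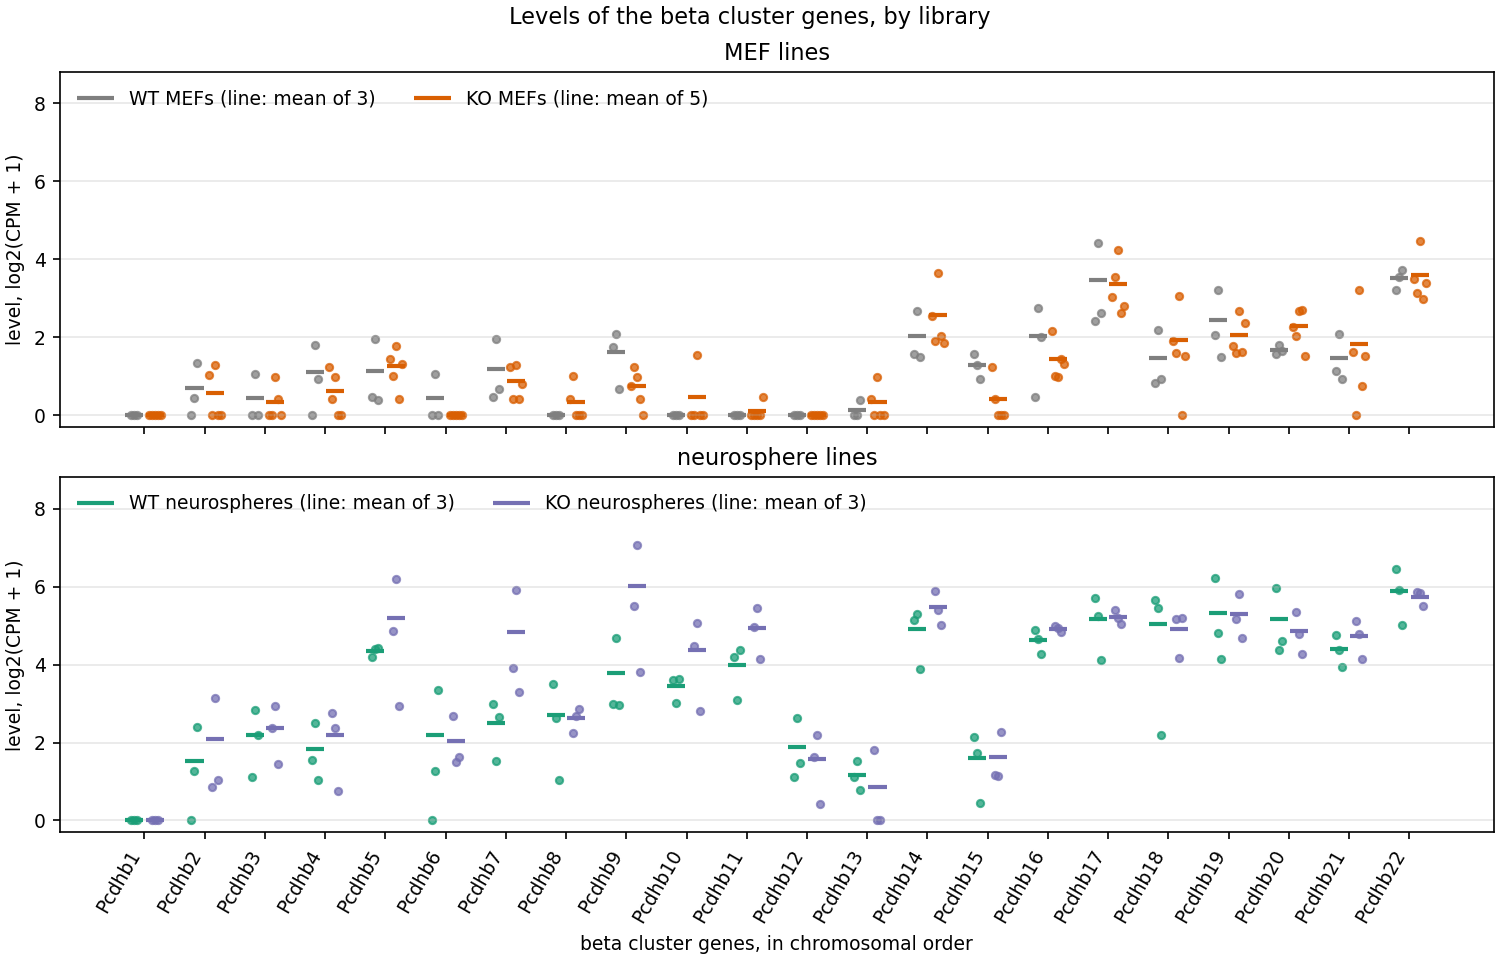
Points are the levels of the 22 beta genes in each library, as log2(CPM + 1), in their order along the chromosome, with MEF lines above and neurosphere lines below and short lines at the group's mean CPM on the same scale. In MEFs reads concentrate on Pcdhb14 to Pcdhb22, while in neurospheres the lines for Pcdhb5 and Pcdhb8 to Pcdhb11 also lie above those of MEFs.

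Pcdhb22, at the end of the cluster next to the gamma genes, had the highest mean level of the beta genes. It stood at 8.33, 10.8 and 12.2 CPM in WT MEFs and 85.8, 58.9 and 31.3 CPM in WT neurospheres (log2 2.50, SE 0.41, edgeR adjusted p = 0.00258). KO MEFs had 10.4, 7.88, 21.4, 6.94 and 9.43 CPM and KO neurospheres 56.6, 56.5 and 44.1 CPM (log2 2.26, SE 0.35, adjusted p = 0.000517). Every neurosphere line was higher than every MEF line of its genotype. Pcdhb17, the second by mean level, had 4.37, 20.5 and 5.18 CPM in WT MEFs and 50.9, 36.9 and 16.4 CPM in WT neurospheres. These lines overlapped, through WT MEF line 2, and the difference of 1.81 missed the threshold (edgeR adjusted p = 0.0667). Without that line it was 2.84 (adjusted p = 0.00525), without WT neurosphere line 3 it was 2.16 (adjusted p = 0.04998), and in KO lines Pcdhb17 was called at 1.97 (adjusted p = 0.00191).

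Pcdhb19, Pcdhb14, Pcdhb20, Pcdhb21 and Pcdhb16 were called in both genotypes, with WT differences of 2.94 to 3.96 and KO differences of 2.85 to 4.02 on the log2 scale. Pcdhb14 stood at 1.98, 5.39 and 1.83 CPM in WT MEFs and at 34.5, 38.3 and 13.9 CPM in WT neurospheres. Pcdhb20 stood at 1.98, 2.52 and 2.13 CPM in WT MEFs and at 60.9, 19.6 and 23.5 CPM in WT neurospheres. Neither gene had overlapping lines in the WT or in the KO comparison. The KO call of Pcdhb21 was lost with the replicate number as a block (edgeR adjusted p = 0.0691). Pcdhb18 passed the filter and the test in the KO lines (log2 3.46, SE 0.68, edgeR adjusted p = 0.00238), and it ranged from 3.56 to 49.8 CPM across WT neurosphere lines. The WT call of Pcdhb19 was lost without WT MEF line 1 (adjusted p = 0.0517). Pcdhb16, Pcdhb18 and Pcdhb21 passed the filter only with their neurosphere lines, so the limit on p-values given above holds for them.

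A run of genes in the middle of the cluster was near or at 0 in MEFs and measurable in neurospheres. Pcdhb11 (chr18:37421418-37425836) had 0 counts in the 3 WT MEF lines and 45, 16 and 55 counts in the WT neurosphere lines. Over the groups this was 15.3 CPM against a floor of 0.350 CPM for 3 counts, at least 43.9-fold higher in WT neurospheres. Among KO MEFs a single Pcdhb11 count appeared, in line 5, against 73, 71 and 48 counts in KO neurospheres. Pcdhb10 had no counts in WT MEFs and 29, 15 and 32 counts in WT neurospheres, at least 28.7-fold higher; its KO MEF counts were 4 in line 3 and 0 in the other 4 lines. Pcdhb8 had no counts in WT MEFs and 27, 11 and 3 counts in WT neurospheres, at least 15.5-fold higher. Pcdhb12 had no count in any of the 8 MEF lines and 19 counts over the WT and 12 over the KO neurosphere lines, at least 7.18-fold and 7.73-fold higher. Pcdhb10 and Pcdhb11 are among the genes called in both genotypes, but they passed the low-count filter through their neurosphere lines alone, so their p-values add nothing to these counts. The same holds for Pcdhb8 in the KO comparison, whose call was lost with the replicate number as a block (edgeR adjusted p = 0.0549). Floors cover counting error only.

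Pcdhb5, Pcdhb7 and Pcdhb9 lie before or within that run and had counts in all WT MEF lines. These counts were low, and the 3 genes too passed the filter only with their neurosphere lines. Their p-values therefore add nothing to the levels given here. Pcdhb5 stood at 0.397, 2.88 and 0.305 CPM in WT MEFs and at 17.2, 20.1 and 20.6 CPM in WT neurospheres (log2 4.01, SE 0.68, edgeR adjusted p = 0.00308), so its WT neurosphere lines were close together. Pcdhb9 (chr18:37400855-37403909) stood at 2.38, 3.24 and 0.610 CPM in WT MEFs and at 6.89, 24.8 and 6.76 CPM in WT neurospheres (log2 2.64, SE 0.77, adjusted p = 0.0270). That call was lost without WT MEF line 1, WT MEF line 3 or WT neurosphere line 2 (adjusted p 0.0775 to 0.115). In KO neurospheres Pcdhb9 reached 44.2, 133 and 13 CPM, against 0 to 1.37 CPM in KO MEFs (log2 6.47, SE 0.83, adjusted p = 0.000223). Pcdhb7 was called in the KO lines (log2 4.97, SE 0.73, adjusted p = 0.000413). Pcdhb1 had no count in any library, and Pcdhb2, Pcdhb3, Pcdhb4, Pcdhb6, Pcdhb13 and Pcdhb15 had group means of 4.17 CPM or less.

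**Figure D4:**
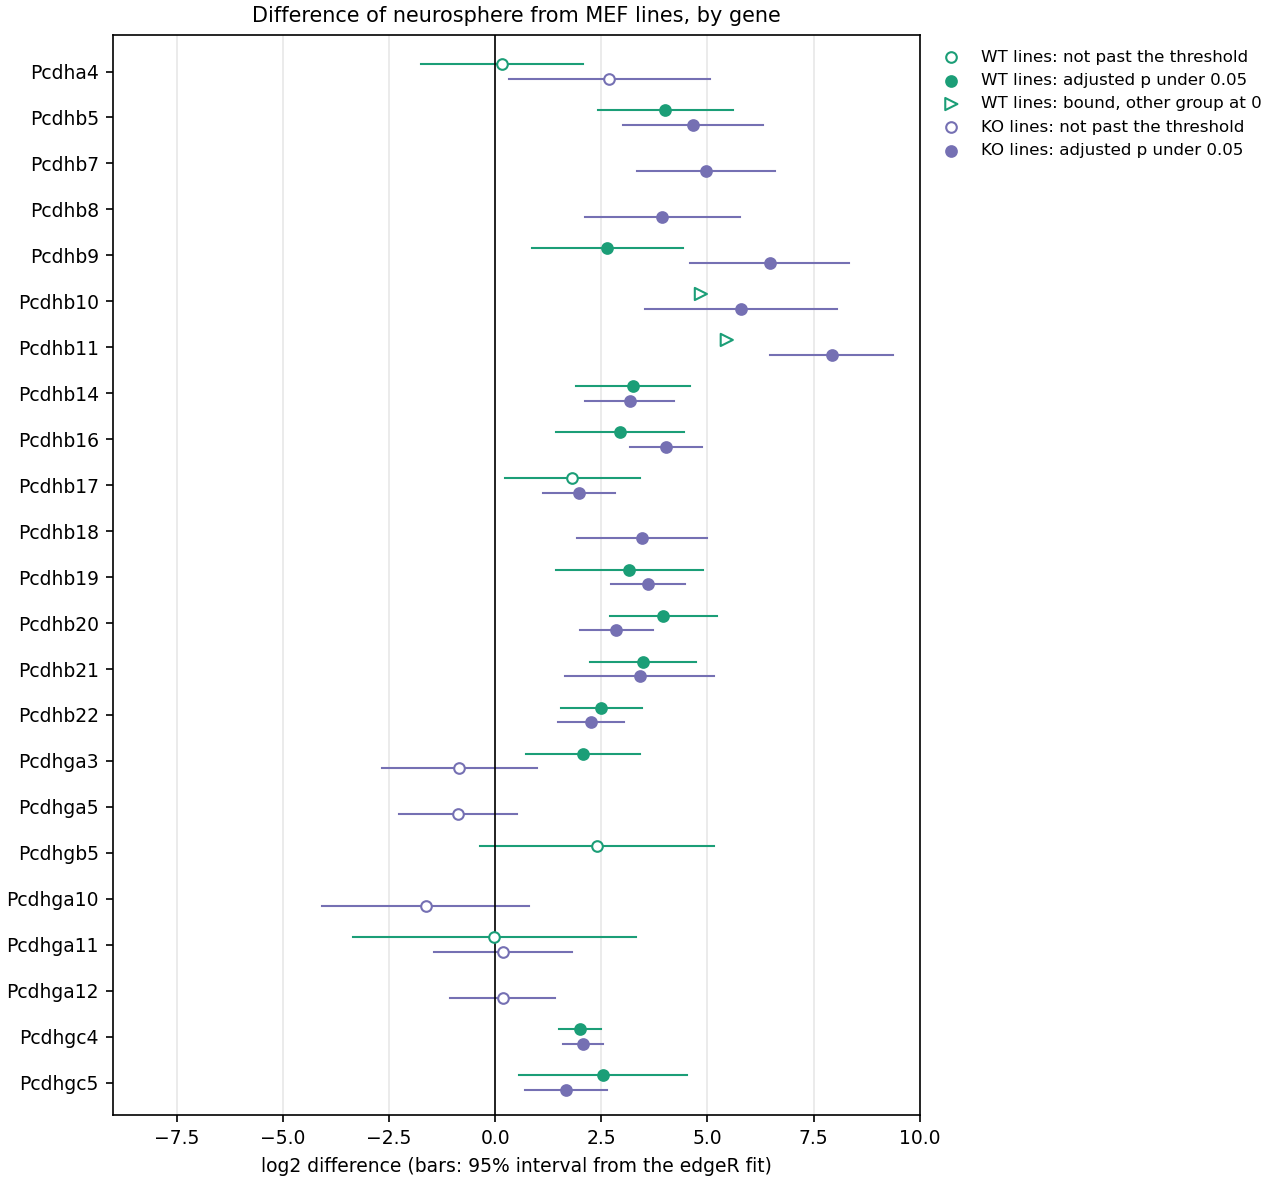
For each clustered protocadherin kept by the filter, points give the log2 difference of neurosphere from MEF lines in WT and KO lines with 95% intervals from the edgeR fit, filled where the adjusted p was under 0.05. Open triangles are lower bounds for Pcdhb10 and Pcdhb11, whose WT MEF lines had no counts; the filled points lie to the right of 0 in both genotypes.

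The spread of beta reads over the genes was compared in 2 ways, and no difference passed after adjustment. Pcdhb14 to Pcdhb22 held 81.4% to 88.4% of the beta reads of WT MEFs and 84.7% to 94.8% of those of KO MEFs, against 61.8% to 84.6% in WT neurospheres, which overlapped, and 43.8% to 78.7% in KO neurospheres. The highest gene of a library held 27.1% to 36.7% of beta reads in WT MEFs and 14% to 17.6% in WT neurospheres, with no overlap (exact permutation test, two-sided, p = 0.1, the smallest possible). In KO lines it held 22.9% to 31.3% against 11.7% to 20.2% (exact p = 0.0179, the smallest possible); adjusted over the 8 comparisons of this family the values were 0.267 and 0.143. Counting beta genes at equal depth, at 69 beta reads drawn per library, gave 12 to 14.3 genes in WT MEFs and 13.8 to 16.1 in WT neurospheres (exact p = 0.3, adjusted 0.476). In KO lines it gave 10.6 to 14.5 against 15 to 15.6 (exact p = 0.0357, adjusted 0.143). Before this equalising, 11 to 16 beta genes had a count in MEF lines and 19 to 21 in neurosphere lines. Position and level were related across the 22 genes in each group, with Spearman correlations of 0.66 in each MEF group, 0.74 in WT and 0.47 in KO neurospheres, given as a description since the genes share the libraries.

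The alpha cluster had the fewest reads and varied most between lines. Alpha reads numbered 29, 209 and 50 in WT MEF lines 1 to 3 and 29, 9, 131, 11 and 43 in the KO MEF lines. The neurosphere lines had 117, 204 and 63 (WT) and 87, 244 and 109 (KO). The levels were 34 ± 35.7 CPM (SD, n = 3), 19.4 ± 25.3 CPM (n = 5), 54.2 ± 37.3 CPM (n = 3) and 73.6 ± 63.3 CPM (n = 3) in these groups. WT MEF line 2, at 75.2 CPM, was above 2 of the WT neurosphere lines, and the groups overlapped. The cell type difference was 0.68 in WT lines (log2, SE 0.81, edgeR adjusted p = 0.531) and 1.97 in KO lines (SE 0.90, adjusted p = 0.0950). Without WT MEF line 2 the former was 2.00 (adjusted p = 0.0365), and without KO MEF line 3 the latter was 3.15 (adjusted p = 0.00293). These are the lines that stood apart in Pcdh17 and Pcdh19. They also had the highest beta sums of the MEFs, 75.5 and 89.4 CPM against 26.7 to 45.2 CPM in the other 6, but not the highest gamma sums, at 441 and 443 CPM. Pcdha4, with the highest mean level under the deposited estimates, differed by 0.15 in WT and 2.69 in KO lines (adjusted p = 0.895 and 0.0570), the latter 3.65 without KO MEF line 3 (adjusted p = 0.0109), and the names of alpha genes carry the limit given above. Pcdha2, Pcdha6, Pcdha8 and Pcdhac1 had no count in any library.

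Loss of H3f3a moved no cluster sum past the threshold in either cell type. In MEFs the KO lines differed from WT by -0.85 (log2, SE 1.03, 95% interval -3.23 to 1.53) for the alpha sum, -0.01 (SE 0.47, -1.07 to 1.05) for the beta sum and -0.04 (SE 0.14, -0.37 to 0.28) for the gamma sum, each with an edgeR adjusted p of 1.00. In neurospheres the differences were 0.46 (SE 0.73, -1.27 to 2.19), 0.46 (SE 0.37, -0.39 to 1.31) and -0.00 (SE 0.27, -0.61 to 0.61), with adjusted p of 1.00. The gamma interval thus runs from 0.776-fold to 1.22-fold in MEFs, while the alpha interval spans 0.106-fold to 2.90-fold. With WT MEF line 2 and KO MEF line 3 left out, an alternative added later, the MEF differences were -0.71, 0.18 and -0.06.

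No single member was called by edgeR. In MEFs edgeR called 0 of 12 members kept by the filter, with 0 at an unadjusted p under 0.05, and DESeq2 and limma also called 0. Each tool called 0.00927% of 10785 genes, in edgeR H3f3a alone, 1.62% had an unadjusted p under 0.05, and the lines did not overlap for 1.85% of genes and 0 of the 12 members. In neurospheres edgeR called 0 of 22, with 3 at an unadjusted p under 0.05, against 0.00941% and 2.14% of 10624 genes; limma, which also called 0.00941% of genes, called 0 members and DESeq2 called 1. For the interaction edgeR called 0 of 32, with 5 at an unadjusted p under 0.05, against 0.0% and 3.02% of 12113 genes. Limma called 0 members and DESeq2, which called 0.0248% of genes, 1, Pcdha12, whose reads share the alpha end. The members kept were more variable than genes in general: their median biological coefficient of variation was 0.551 in MEFs and 0.485 in neurospheres, against 0.276 and 0.319 over all genes tested. In MEFs the smallest unadjusted p of each cluster belonged to Pcdha4 (log2 -2.07), Pcdhb20 (0.81) and Pcdhga5 (0.47), and next came Pcdha5 (0.03), Pcdhb14 (0.67), Pcdhb19 (-0.48), Pcdhga3 (-0.28) and Pcdhgc4 (-0.05). The WT and KO lines of these genes overlapped.

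**Figure D5:**
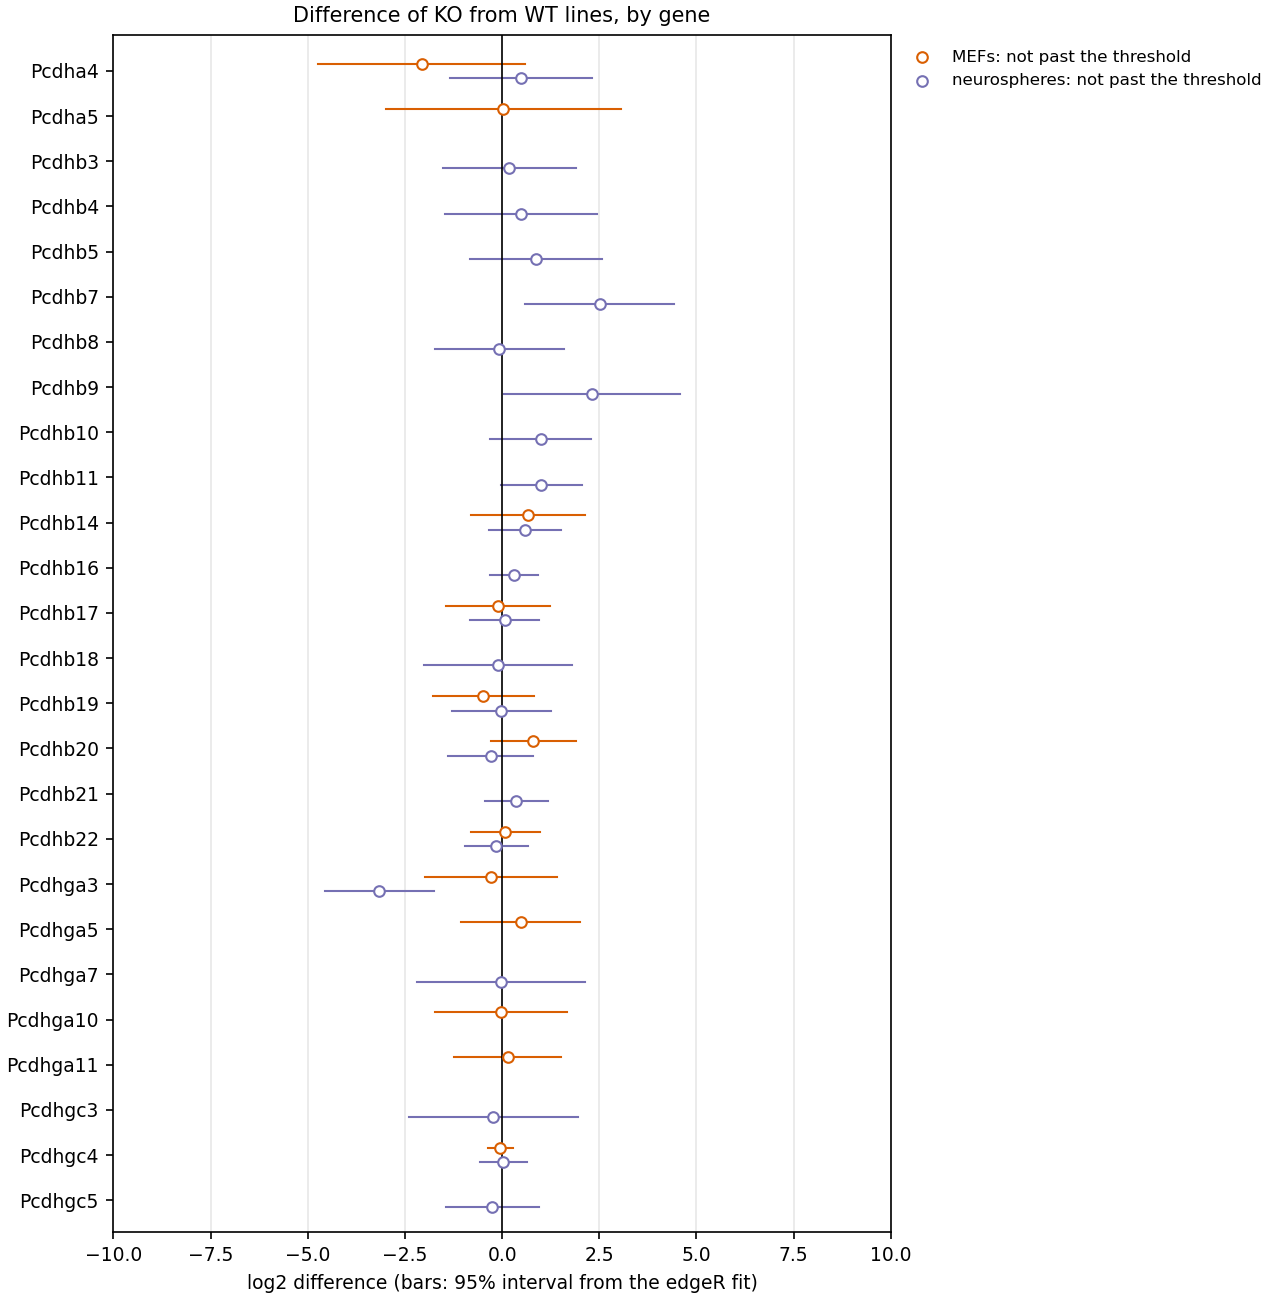
For each clustered protocadherin kept by the filter, points give the log2 difference of KO from WT lines in MEFs and in neurospheres with 95% intervals from the edgeR fit. All points are open because none had an adjusted p under 0.05; the interval of Pcdhga3 in neurospheres lies farthest from 0, and that of Pcdhgc4 is the narrowest in both cell types.

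Pcdhga3 (chr18:37674307-37841873) had the smallest unadjusted p in neurospheres. Its estimated reads were 74, 54 and 195 in WT lines and 16, 2 and 15 in KO lines, or 28.3, 25.2 and 69.3 CPM against 6.61, 1.20 and 5.25 CPM. The groups did not overlap, as for 2 of the 22 members kept and 7.2% of all genes tested. The difference was -3.16 (log2, SE 0.61, 95% interval -4.56 to -1.75), with an unadjusted p of 0.000849 and an adjusted p of 0.999 in edgeR. DESeq2 gave -3.18 with an adjusted p of 0.000804, where it called 7 of 10624 genes or 0.0659%, and limma on log2(TPM + 1) gave -2.43 with an adjusted p of 1.00. Within the last 500 bases the Pcdhga3 transcript has no 31-base word of its own, although 52.1% of the words of the whole transcript are private. The shared-end reads given to gamma transcripts other than the short Pcdhgc4 form were 399, 137 and 237 in WT and 81.0, 59.6 and 212 in KO neurosphere lines. The gamma sum, which does not depend on how these reads were divided, differed by -0.00 (95% interval -0.61 to 0.61). The short Pcdhgc4 form held 92.3% or more of that sum in each neurosphere line. A change in the few reads given to Pcdhga3 could therefore not be seen in the sum. The WT neurosphere lines enter both this comparison and the WT cell type comparison in which Pcdhga3 was called higher, so the values of the 2 comparisons are not independent.

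Pcdhb7 and Pcdhb9 were the other 2 with an unadjusted p under 0.05. Pcdhb7 stood at 6.89, 1.87 and 5.33 CPM in WT and 14, 59.5 and 8.75 CPM in KO neurospheres, without overlap (log2 2.51, SE 0.82, unadjusted p = 0.0171 and adjusted p = 0.999 in edgeR). Pcdhb9 differed by 2.32 (SE 0.94, adjusted p = 0.999), and its groups overlapped because WT line 2, at 24.8 CPM, exceeded KO line 3, at 13 CPM. KO neurosphere line 2 was the highest line for Pcdhb5 (72.1 CPM), Pcdhb7, Pcdhb9, Pcdhb10 (32.5 CPM) and Pcdhb11 (42.7 CPM), and it was also the shallowest library. Among the C-type and other gamma genes Pcdhgc3 and Pcdhgc5 differed by -0.23 and -0.25 between genotypes, with overlapping lines. The interaction of Pcdhga3, its neurosphere difference minus its MEF difference, was -2.88 (SE 1.1, adjusted p = 1.00).

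Protocadherins outside the clusters, 12 single-gene relatives that also act in adhesion, moved in both directions between the cell types. In WT lines 8 were kept, 4 called higher and 2 lower, with a median difference of 1.91 against 0.02 over all genes tested. In KO lines 9 were kept, 5 called higher and 2 lower, with a median of 2.38 against -0.01. Over all genes 20.8% were called each way in WT lines, and 25.4% higher and 26.2% lower in KO lines. Whether these counts depart from those shares was not tested. Pcdh10, at 3.17, 51.4 and 2.13 CPM in WT MEFs and 239, 293 and 162 CPM in WT neurospheres, differed by 3.64 (edgeR adjusted p = 0.0323). Pcdh15, Pcdh11x and Pcdh9 were higher by 5.06, 2.88 and 1.93 in WT lines (adjusted p = 0.00453, 0.00235 and 0.0160). Pcdh18, at 92.1 to 175 CPM in WT MEFs and 15.9 to 26.7 CPM in WT neurospheres, was lower by 2.62 on the log2 scale, and Pcdh19 by 2.24, although WT MEF line 2 fell within the range of the WT neurosphere lines. In KO lines Pcdh1 was also called, at 3.46. None of the 12 was called between genotypes in either cell type.

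Of 14 measured genes for CTCF, cohesin and its loaders, which join promoter and enhancer in the clusters, 4 were called higher and 0 lower in WT neurospheres and 5 higher and 2 lower in KO neurospheres, with medians of 0.21 and 0.31. The shares called over all genes, 20.8% in each direction in WT lines and 25.4% and 26.2% in KO lines, give no ground to call the list particular. Mau2 and Nipbl, the cohesin loaders, were higher by 1.23 and 0.69 in WT lines, Stag2, a cohesin subunit, by 0.88, and Hdac8, the SMC3 deacetylase, by 1.81. Ctcf stood at 65.1 to 97.8 CPM in WT MEFs and 102 to 132 CPM in WT neurospheres. Its difference was 0.45 in WT (edgeR adjusted p = 0.155) and 0.50 in KO lines (adjusted p = 0.0290), and Rad21, the cohesin kleisin, differed by 0.12 and 0.31 (adjusted p = 0.713 and 0.327). Wapl and Pds5a, which release cohesin, were lower in KO neurospheres by 0.52 and 0.62 on the log2 scale. Between genotypes 0 of these 14 genes were called.

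Genes linked to silencing of the clusters moved in both directions between the cell types: of 19 kept, 5 were called higher and 1 lower in WT neurospheres and 6 higher and 4 lower in KO neurospheres. Over all genes 20.8% were called in each direction in WT lines, and 25.4% higher and 26.2% lower in KO lines, so no count of this list is read as particular to it. Smchd1, whose product represses clustered protocadherins, was lower in neurospheres, with 175 to 199 CPM in WT MEFs against 107 to 114 CPM in WT neurospheres (log2 -0.74, SE 0.18, edgeR adjusted p = 0.0119) and -0.56 in KO lines (adjusted p = 0.0408). Dnmt3a, a de novo DNA methyltransferase, was higher by 2.43 in WT lines, and Tet1, Tet2 and Tet3, which oxidise methylcytosine, by 2.96, 2.37 and 1.81. Trim28 and Rest, co-repressor and repressor, were lower in KO neurospheres, by 0.96 and 0.54 on the log2 scale. Setdb1, an H3K9 methyltransferase, differed by 0.38 in WT and 0.73 in KO lines (adjusted p = 0.325 and 0.0621), and Dnmt3b stood at 0 to 4.37 CPM and was not kept. In the genotype comparisons 0 of 19 were called in either cell type, Smchd1 differing by -0.01 in MEFs and 0.19 in neurospheres.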

How the data were processed

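RNA from 8 MEF and 6 neurosphere lines was read from the 3′ end of polyadenylated transcripts with the QuantSeq forward kit. Expected counts and TPM for each transcript were deposited by the authors; the submitters' processing notes name Salmon 1.1.0 and edgeR, and the transcript set is not given in the sources used here. Of 116945 transcripts, 115560 matched GENCODE M21 with their version and 385 without; the 1000 unmatched held 0.251% to 0.425% of reads and were left out. Expected counts were summed per gene (35449 genes) or cluster and rounded. Each comparison was fitted apart in edgeR 4.0.16 (R 4.3.3; TMM, default low-count filter, robust quasi-likelihood test, Benjamini-Hochberg threshold 0.05), with the interaction over all 14 libraries. A cluster sum replaced its members in a fit of its own. CPM values use TMM over all libraries, and for a gene with 0 counts in a group a floor of 3 counts over that group was used. Intervals are 95%.

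Alternatives were DESeq2 1.42.0 as a test and for size factors, limma 3.58.1 on log2(TPM + 1), no filter, a stricter filter of 20 counts, 1 fit over all libraries, a replicate block, a block on file number, a shared end class limited to ends within 200 bases, other beta thresholds and leaving out each line. On simulated data for the KO comparisons the test found 85.0% of 4-fold changes among 10603 genes in MEFs and 82.3% among 10372 in neurospheres, but 23% and 11.1% of 2-fold changes. The changed genes were drawn from those with a mean above 5 CPM, with the spread of the trend over all genes. Many members lie lower and vary more, so these shares do not carry over to them. The members, gene lists and rule for named genes were chosen with earlier results of these data known. Named are the 3 sums, members past the threshold, the 6 highest of each cluster, the 3 smallest p of each cluster in the genotype comparisons, and list members called, up to 4 each way, with Taf7, Ctcf, Rad21, Smchd1, Dnmt3b and Setdb1. No sequence of these genes is printed. P-values measure the spread between lines.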

Additional observations from a re-analysis of the deposited data

Results flagged for a closer look

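In the 5 KO MEF lines, the group large enough for a test of a single far value (Dixon, 95%), 30 measures were tested and 9 had a line far from the other 4. Chance gives about 1 in 20 for a single group, but these measures share the same 5 lines, and in 4 of the 9 (Pcdha9, Pcdha11, Pcdhb10 and Pcdhb11) the other lines were at 0, so that any count would stand apart. KO MEF line 3 was the far line in 8. Its alpha sum was 63.6 CPM against 3.08 to 16.2 CPM in the other lines. It had 20.9 CPM of Pcdha9 and 18.5 CPM of Pcdha11 (ENSMUSG00000007440.10), both 0 in the other lines, though which alpha gene the reads belong to is an estimate. Among beta genes it had 11.7 CPM of Pcdhb14 (others 2.64 to 4.83), 21.4 CPM of Pcdhb22 (others 6.94 to 10.4), 8.26 CPM of Pcdhb21 (others 0 to 2.07) and 1.94 CPM of Pcdhb10 (others 0). Pcdhga3 stood at 23.8 CPM (others 2.43 to 7.94). In KO MEF line 5, Pcdhb11 stood at 0.377 CPM, a single count, against 0 in the others.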

How the results depend on the processing

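Results that answer a comparison kept their direction and side of the threshold in 224 recomputations with another setting, changed sign in 7, moved in 2 and newly passed in 1; with lines left out they kept both in 275, changed sign in 34, lost the threshold in 8 and newly passed it in 3. The beta sum of KO against WT MEFs, near 0, changed sign with DESeq2 (0.00207), no filter (0.00105), a replicate block (0.35) and without WT MEF line 2 and KO MEF line 3 (0.18). The gamma sum of KO against WT neurospheres was 0.000173 with the stricter filter. DESeq2 called 1 member in neurospheres and 1 for the interaction. The interaction of the beta sum was -0.0247 with the replicate block. Counting forms that end over 200 bases from the common end as other ends gave -0.24 for the interaction and 1.13 (adjusted p = 0.0216, now past the threshold) for KO neurospheres against KO MEFs. Without thinning, the difference in beta genes detected between KO and WT neurospheres was 0.0. Pcdha5 in KO MEFs turned to -0.076 with DESeq2, -0.00536 with no filter and -0.26 without the pair of lines, and Pcdhga3 in KO MEFs to 0.038 with the replicate block. Pcdhga11 in KO neurospheres against KO MEFs turned to -0.38 with the replicate block, -0.22 with limma and -0.80 with the file number block. The cause of these changes was not tested.

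Leaving out each line in turn, the KO against WT sums in MEFs ranged from -2.05 to 0.49 (alpha), -0.41 to 0.57 (beta) and -0.10 to 0.038 (gamma; shared end -0.11 to 0.0312), and in neurospheres from -0.53 to 1.15 (alpha), 0.15 to 0.73 (beta) and -0.24 to 0.12 (gamma, and its shared end). The interactions ranged from -0.0493 to 2.48 (alpha), -0.14 to 0.83 (beta) and -0.235 to 0.163 (gamma; shared end -0.236 to 0.164). The cell type differences of the alpha sum ranged from -0.00263 to 2.00 in WT and 1.01 to 3.15 in KO lines, of the beta sum from 2.69 to 3.55 and 3.16 to 3.81, and of the gamma sum from 1.82 to 2.05 and 1.74 to 2.11. Other gamma ends in KO lines ranged from 0.63 to 1.16. Thinned beta genes ranged from 2.57 to 3.57 for KO neurospheres over KO MEFs (exact permutation p 0.0571 to 0.0952) and from -0.63 to 0.55 for KO over WT neurospheres, where the share of the highest gene ranged from -2.74 to 1.5 percentage points. Members called ranged from 11 to 16 in WT and 15 to 18 in KO lines. Single genes that changed sign were Pcdha4 (-0.54 to 1.25 in KO neurospheres over WT; -0.62 to 1.36 in WT neurospheres over MEFs), Pcdha5 (-0.61 to 5.34), Pcdhb19 (-0.85 to 0.35), Pcdhga3 (-1.12 to 0.41) and Pcdhgc4 (-0.11 to 0.027) in KO over WT MEFs, Pcdhgc3 (-2.04 to 0.22) and Pcdhgc5 (-0.58 to 0.52) in KO over WT neurospheres, Pcdhga11 (-6.62 to 0.58 in WT, -1.72 to 0.64 in KO lines) and Pcdhga3 (-1.24 to 0.013) in neurospheres over MEFs. A group left with 2 lines shares its spread with the other group.

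Replicate numbers did not pair the lines: deviations of same-numbered lines correlated from -0.542 to 0.182, and lines with a shared file number from 0.000407 to 0.0617. With the replicate block the members called were 14 in WT and 13 in KO lines, the KO calls of Pcdhb8, Pcdhb21 and Pcdhgc5 being lost (adjusted p 0.0549 to 0.0691) and the WT difference of Pcdhb17 passing (1.95, adjusted p = 0.0417), and with no filter 16 and 23, with a filter of 20 counts 9 and 12. Depth limits the alpha genes most, with 9 to 244 reads per library.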

Other observations

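Binding partners and signalling genes of the clustered protocadherins differed between the cell types in both directions. Of 22 kept, 7 were called higher and 2 lower in WT neurospheres, and 7 higher and 4 lower in KO neurospheres, with medians of 0.19 and 0.07, against 20.8% of all genes called in each direction in WT lines and 25.4% higher and 26.2% lower in KO lines. Nlgn1, a synaptic adhesion gene, stood at 0.360 to 0.794 CPM in WT MEFs and 127 to 173 CPM in WT neurospheres. The WAVE complex is an actin regulator that binds the cytoplasmic ends of some protocadherins. Its genes Cyfip2, Wasf1 and Abi2 were higher by 5.15, 2.54 and 2.27 in WT lines (log2, edgeR, each past the threshold). In KO lines they were higher by 4.13, 2.54 and 2.47, again each past the threshold. The list also holds Cyfip1, Nckap1, Abi1 and Brk1 of this complex, which the naming rule left out. No shift of the whole complex is read from the genes named. Ptk2b, the kinase PYK2, which the alpha and gamma cytoplasmic ends inhibit, stood at 11.3 to 26.6 CPM in WT MEFs and 0 to 0.383 CPM in WT neurospheres. Between genotypes 0 of the kept genes were called.

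Genes within 500 kb of the clusters did not share a direction: of 20 kept, 1 was called higher and 4 lower in WT neurospheres, and of 21 kept, 5 higher and 6 lower in KO neurospheres. The shares over all genes were 20.8% each way in WT lines, and 25.4% higher and 26.2% lower in KO lines. No count of these neighbours is read as particular to them. Taf7, which lies between the beta and gamma clusters, stood at 11.1, 7.55 and 6.10 CPM in WT MEFs and 30.3, 21.5 and 9.24 CPM in WT neurospheres, with overlapping lines (log2 1.32, edgeR adjusted p = 0.0600). Tmco6 was the gene called higher in WT neurospheres (2.66), and Hbegf, a growth factor of the EGF family, was lower by 3.50 on the log2 scale.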
